A study of Populus trichocarpa with 24 samples.

Results

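Gene expression in laser-captured wood fiber cells was compared with that in a captured mixture of fiber, vessel and ray cells of black cottonwood (Populus trichocarpa), called the three-cell mix. The comparison holds 3 fiber libraries and 3 mix libraries, 6 of the 24 RNA sequencing libraries of the series, chosen by their column names. All trees were grown in a greenhouse for 6 months, and the labels give no other genotype or treatment. Cells of both groups were cut from developing xylem with a laser microdissection microscope, and their RNA was amplified before library preparation. The mix also contains fiber cells, in a proportion that the sources used here do not give, so the 2 groups share a cell type. How cells were recognised, how many were pooled and whether replicates came from separate trees are likewise not given, and p-values therefore measure only the spread between these libraries. The other groups used here for orientation are the 3 vessel captures, which were also amplified, and the 5 tissues (differentiating xylem, phloem, shoot tip, leaf and primary root), which were not.

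Fibers are the supporting cells of angiosperm wood and lay down a thick secondary wall of cellulose, xylan and lignin. Vessel elements conduct water, build a patterned secondary wall and die early by programmed cell death. Ray cells are living parenchyma that stores reserves and moves them across the stem. Secondary wall formation is switched on by NAC transcription factors, which act through MYB factors on the genes of cellulose, xylan and lignin synthesis.

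The deposited table gives loci by identifier, without gene names, and the reference table used here matched 0 of its 41335 identifiers. Genes are therefore described through 11 lists of 84 loci, drawn up from published poplar nomenclature as recalled and not checked against an annotation, and only 2 identifiers in each direction are printed. Single loci may therefore stand in the wrong list. Loci of gene families with near-identical copies are uncertain as well, since how reads shared by copies were counted is not known.

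Fiber libraries held between 8317935 counts (replicate 1) and 10428268 counts (replicate 3), and mix libraries between 10554388 (replicate 1) and 18040299 (replicate 3). At least 1 count was found for 20706 ± 1089 loci in fiber and 27429 ± 1272 loci in the mix (SD, n = 3). Scaled to the smallest total of 8317935 counts by the rarefaction formula, the numbers were 20599 ± 1143 and 26924 ± 1043, so the groups did not overlap at equal depth either (exact permutation test, two-sided p = 0.1, the smallest that 3 against 3 libraries allow). Fiber libraries also differed more from each other than mix libraries did. The biological coefficient of variation, the spread between replicates beyond counting error, was 112% within fiber and 40.5% within the mix, and the correlation of log2 expression across loci was 0.741 to 0.791 between fiber libraries and 0.903 to 0.931 between mix libraries. Of the fiber libraries, replicate 3 was the least like the mix (0.703 to 0.737), and replicate 2 the most (0.781 to 0.815).

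Captured fiber differed from the mix in both directions, with similar numbers of loci each way in the 6-library edgeR fit and more loci lower than higher in the fits of more libraries, by DESeq2, by voom and with library totals. By edgeR's quasi-likelihood test on the 6 libraries, 216 of 21652 tested loci (0.998%) were called, meaning that their p after Benjamini-Hochberg adjustment was below 0.05 with a log2 fold of 1 or more in size, and of these 105 were higher in fiber (0.485%) and 111 lower (0.513%). In all 216 the 3 fiber libraries lay wholly above or wholly below the 3 mix libraries. Such a separation was common among all tested loci too, with every fiber library above every mix library at 2048 loci (9.46%) and below at 4235 loci (19.6%). The fitted changes downward were larger, but the 2 directions are not alike. The mix contains fiber cells, which limits how far a locus can rise over it but not how far it can fall. Of the loci called lower, 5 had no fiber count and 11 had 1 to 3, while 0 of those called higher lacked a mix count. The part of either in the difference was not tested. Loci called higher had log2 folds from 1.27 to 4.20 with a median of 1.98, and 49 of them were at least 4-fold higher. Loci called lower had a median log2 fold of -3.23, and 85 of them were at least 4-fold and 31 at least 16-fold lower. Together the 105 loci made up 5.38 ± 0.78% of expression in fiber and 1.20 ± 0.15% in the mix, while the 111 loci made up 0.552 ± 0.1001% and 5.01 ± 0.88% (SD, n = 3). In bulk samples such as these, fewer cells of a type and less RNA per cell cannot be told apart.

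The number of calls depended on every mix library and on fiber replicate 1. Without fiber replicate 1 or without mix replicate 1, 2 or 3, edgeR called 0 loci, with 5219, 2852, 3269 and 2466 loci at an unadjusted p below 0.05 and smallest adjusted p-values of 0.0745, 0.0628, 0.0735 and 0.0673, and 175 and 117 loci were called without fiber replicates 2 and 3. DESeq2 called 771 loci higher (3.56%) and 1375 lower (6.35%) on the same libraries, and limma voom with sample weights 354 (1.63%) and 832 (3.84%). At an unadjusted edgeR p below 0.05, 1533 of the 21652 loci were higher in fiber and 2154 lower. Counts within the lists below are to be read against these numbers and the DESeq2 shares. The fit of all 9 captures called 15 higher (0.0657%) and 64 lower (0.28%), and that of all 24 libraries 615 (1.93%) and 3452 (10.8%). With the replicate number as a block, edgeR called 57 higher and 65 lower. Scaling by library totals alone gave 59 higher and 125 lower loci in place of 105 and 111, and the median log2 fold of all loci was -0.25 in place of -0.08.

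**Figure D1:**
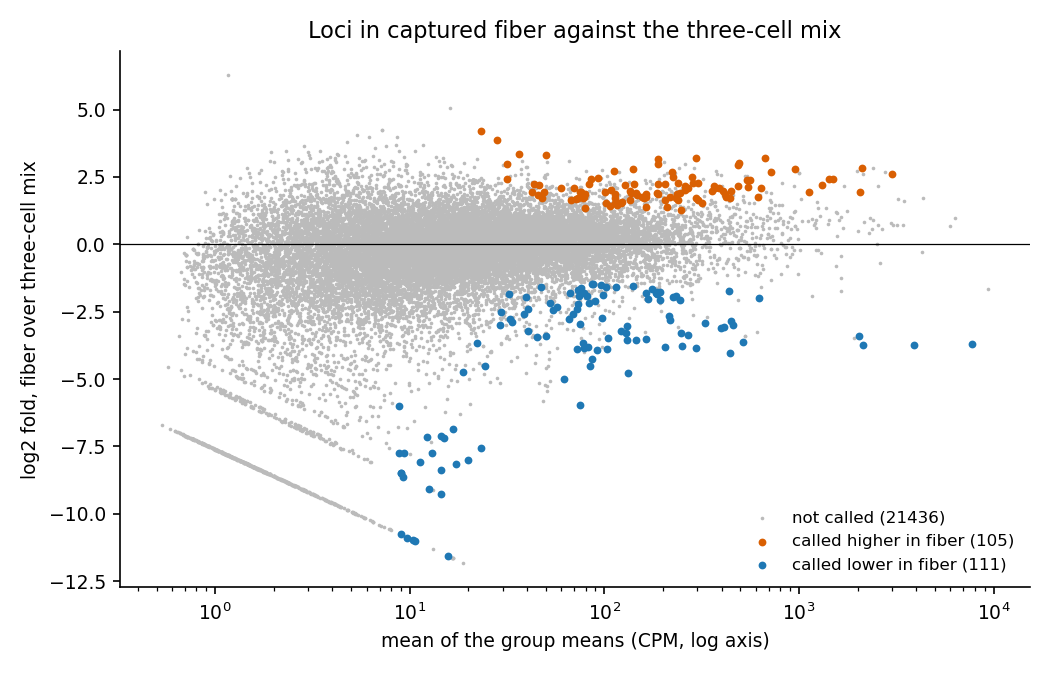
Each point is 1 of the 21652 tested loci, with the mean of the fiber and mix group means (CPM, scaled counts, log axis) against the log2 fold of fiber over the mix. Orange and blue points are the 105 and 111 called loci. The lowest diagonal band is made of loci with no count in fiber, among them 5 of the called ones.

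Levels of single loci are given as CPM, counts per 1000000 after TMM scaling of the library totals, and are not corrected for transcript length. The locus with the largest rise was Potri.001G152500. It had 20.3, 50.2 and 55.5 CPM in fiber replicates 1 to 3, against 2.35, 2.35 and 2.36 CPM in the mix. All fiber libraries lay far above the mix libraries, which hardly differed from each other, and the vessel captures held 0 counts. The log2 fold was 4.20 ± 0.56 (SE), with an edgeR adjusted p of 0.031. In tissues it was highest in leaf, at 319.1 ± 249.3 CPM (SD, n = 3), and reached 9.70 ± 5.58 CPM in xylem.

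The most abundant locus called higher was Potri.012G015000. Its 3 fiber libraries held 4027, 5216 and 5634 CPM and its mix libraries 664.1, 1166 and 645.4 CPM. Every fiber library was thus above every mix library, and the vessel captures were lower still, at 1.82, 75.5 and 233.3 CPM. The log2 fold of fiber over the mix was 2.63 ± 0.40 (SE), with an edgeR adjusted p of 0.037. Outside the captures it was confined largely to xylem, with 1121 ± 883.6 CPM there and means of 0.321 to 3.64 CPM in the other 4 tissues.

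Among the loci that fell, Potri.014G074600 had the largest fitted change, with 0 counts in all 3 fiber libraries. The mix held 52.3, 21.99 and 18.3 CPM, and the vessel captures 49.1, 0 and 12.8 CPM. It was therefore present in every mix library but in only 2 of the 3 vessel libraries. Taking 3 counts over the fiber group as the floor, which covers counting error only, it was at least 287.1-fold lower in fiber than in the mix (edgeR adjusted p = 0.034). Another 4 of the loci called lower had no fiber count either, with bounds of at least 164.9-fold, and the median of the 111 loci was -3.23 with these loci at their bounds too. Its level in unamplified xylem was 2.67 ± 0.43 CPM, and the highest tissue was leaf with 39.1 ± 18.2 CPM (SD, n = 3).

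The most abundant locus called lower was Potri.016G104300, with a mean of 14045 CPM in the mix. It had 1125, 1513 and 529.1 CPM in fiber and 21410, 12383 and 8343 CPM in the mix. The vessel captures lay within the range of the mix, at 19752, 19012 and 16676 CPM. The log2 fold was -3.69 ± 0.63 (SE), with an edgeR adjusted p of 0.048. In xylem tissue it reached 818.7 ± 98.7 CPM, against 3.91 ± 1.998 CPM in phloem (SD, n = 3). Calls of all 4 loci were lost without fiber replicate 1 or 2 or any mix replicate, and those of Potri.012G015000 and Potri.016G104300 also without fiber replicate 3. The calls of all but Potri.016G104300 were lost in the fit of all 9 captures, that of Potri.012G015000 in the fit of all 24 libraries, and those of Potri.001G152500 and Potri.014G074600 with the replicate block.

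**Figure D2:**
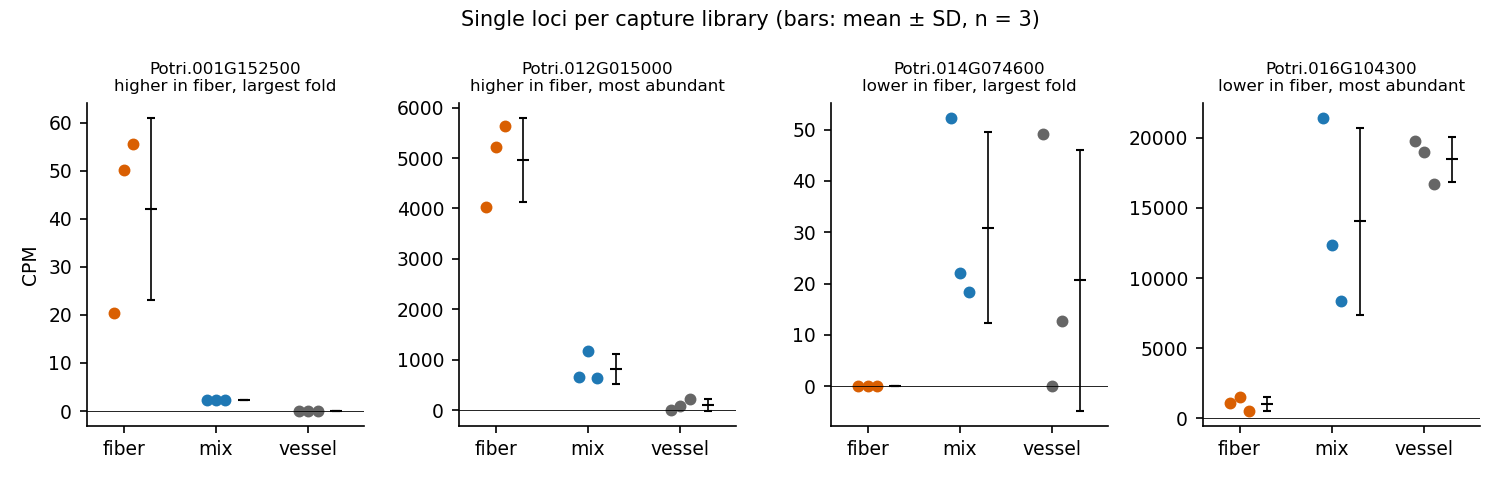
CPM of the 4 single loci in each library of the fiber, mix and vessel captures (points), with the mean ± SD of 3 libraries beside them and a separate vertical axis for each locus. Both loci called higher are lowest in vessel captures, while Potri.016G104300 lies within the range of the mix in vessel.

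Secondary wall cellulose synthases, which make the cellulose of the thick fiber wall, had the highest positive median log2 fold of the 11 lists, while the cambium and MYB lists had negative medians of larger size. The 5 loci summed to 10539, 7010 and 8745 CPM in the fiber libraries and 2638, 2232 and 2492 CPM in the mix libraries. The groups were far apart, and at each of the 5 loci all fiber libraries lay above all mix libraries (background 9.46%). Of the 5, 1 rose in fiber, from 570.9, 311.3 and 500.2 CPM in the mix to 2658, 1432 and 2090 CPM, a log2 fold of 2.21 ± 0.37 (SE) with an edgeR adjusted p of 0.048. The most abundant locus of the list, with 3971 ± 965.3 CPM in fiber and 921.5 ± 294.8 CPM in the mix, had a log2 fold of 2.15 ± 0.39 and an adjusted p of 0.055 in that test. The list median was 1.53, against -0.08 for all tested loci, and all 5 were called higher by DESeq2 (background 3.56%). The call of the single locus was lost when library totals alone were used, in the fit of all 9 captures and when any 1 of the 6 libraries was left out. Its log2 folds lay between 1.96 and 2.41 over all alternatives. In the fit of all 9 captures 1 other locus of the list was called higher instead.

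Monolignol synthesis, the pathway from phenylalanine to the building blocks of lignin, gave higher values in fiber without a called locus. The 22 loci summed to 54997, 39962 and 21899 CPM in fiber and 33872, 20191 and 15796 CPM in the mix. These ranges overlap, since fiber replicate 3 lay below mix replicate 1. All 22 log2 folds were positive, from 0.50 to 1.25 with a median of 0.88, while 46.8% of all tested loci had a positive fold. The edgeR test called none of them, 6 had an unadjusted p below 0.05, and DESeq2 called 2 higher (background 3.56%). Of all 21652 tested loci, 1533 had an unadjusted edgeR p below 0.05 with a positive fold.

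Step by step, median log2 folds ran from 0.67 to 0.96. The entry enzyme, phenylalanine ammonia-lyase, was represented by 5 loci with a median log2 fold of 0.67 and sums of 11871 ± 5316 CPM in fiber and 7752 ± 4351 CPM in the mix (SD, n = 3). The 3 loci listed for the hydroxylases that act on cinnamate and on the coumaroyl ester had a median of 0.87, and the 2 loci of 4-coumarate:CoA ligase, which activates the acids, a median of 0.76. Medians were 0.92 for the 4 loci that form and cleave the shikimate esters, 0.92 for the 3 caffeoyl-CoA O-methyltransferase loci and 0.78 for the 2 reductase loci that yield the alcohols. The branch to syringyl lignin, the lignin type that prevails in fiber walls of angiosperms, had a median of 0.96 over 3 loci, with sums of 8883 ± 4826 and 4672 ± 894.7 CPM. Its most abundant locus had 12946, 6370 and 4751 CPM in fiber and 4730, 4735 and 3194 CPM in the mix. All fiber libraries were above the mix here, replicate 3 only just, and the log2 fold of 0.96 ± 0.50 (SE) had an edgeR adjusted p of 0.40. The second most abundant locus of the list belonged to phenylalanine ammonia-lyase and had a log2 fold of 0.67 ± 0.63 and an adjusted p of 0.70 in the same test.

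Xylan, the main non-cellulosic polysaccharide of hardwood secondary walls, was represented by 9 loci. They summed to 4821, 2479 and 1867 CPM in fiber and 1448, 741.4 and 1486 CPM in the mix. All fiber sums were above all mix sums, with fiber replicate 1 standing well above the other two. All 9 folds were positive, with a median of 1.03 and a range from 0.37 to 1.64. At 5 loci all fiber libraries lay above all mix libraries (background 9.46%). The edgeR test called none, with 5 at an unadjusted p below 0.05, and DESeq2 called 3 higher (background 3.56%). The 2 most abundant loci had log2 folds of 1.47 ± 0.47 and 1.64 ± 0.36 (SE), with edgeR adjusted p-values of 0.15 and 0.069.

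Cellulose synthases of the primary wall, the thin wall of growing cells, had no called locus. The 11 loci summed to 813.0, 547.8 and 738.6 CPM in fiber and 443.3, 521.2 and 366.0 CPM in the mix, so that every fiber sum lay above every mix sum, though fiber replicate 2 by little. Folds were positive at 9 of 11 loci with a median of 0.57. No locus was called by edgeR, while 3 had an unadjusted p below 0.05 and DESeq2 called 1 higher (background 3.56%). The most abundant had 206.7, 86.2 and 263.9 CPM in fiber and 76.9, 85.1 and 66.7 CPM in the mix, a log2 fold of 1.32 ± 0.40 (SE) with an edgeR adjusted p of 0.13. The next had a log2 fold of 0.66 ± 0.23 and an adjusted p of 0.19 in that test. The highest log2 fold of the list, 1.89 ± 0.78 with an edgeR adjusted p of 0.27, was that of a locus with 16.05, 18.03 and 16.3 CPM in fiber and 2.80, 8.65 and 2.47 CPM in the mix.

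Sucrose synthase cleaves sucrose and supplies the UDP-glucose used for cellulose. Of the 3 loci 1 rose in fiber, with 1753, 1582 and 1767 CPM against 448.2, 390.9 and 544.9 CPM in the mix. The fiber libraries hardly differed from each other, and the lowest of them was well above the highest mix library. The log2 fold was 1.93 ± 0.27 (SE), with an edgeR adjusted p of 0.033. The other 2 loci had log2 folds of -0.53 ± 0.46 and -1.19 ± 0.30, with adjusted p-values of 0.68 and 0.076 in that test. The last of these had 21.7, 18.1 and 22.5 CPM in fiber and 46.2, 44.97 and 55.3 CPM in the mix, and was called lower by DESeq2. In unamplified xylem the locus that rose had a mean of 5235 CPM, above any capture.

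**Figure D3:**
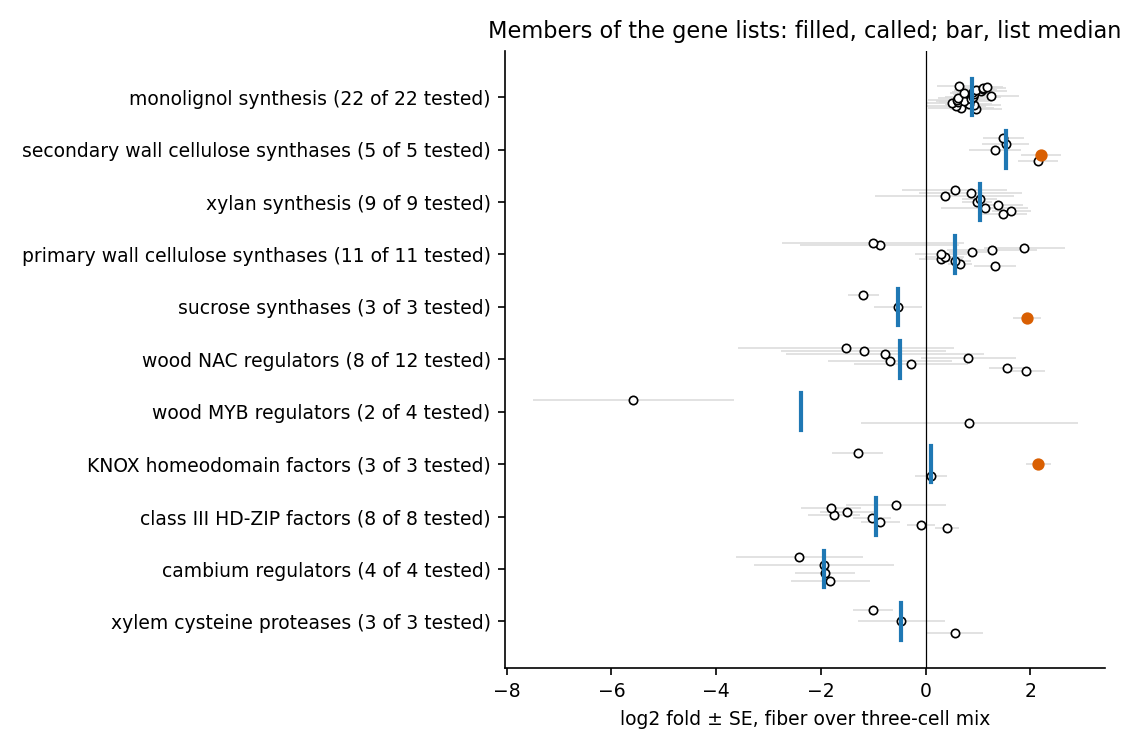
Log2 fold of fiber over the mix with its standard error for the 78 tested of 84 listed loci, by list. Filled orange points are the 3 called loci and blue bars are list medians, which lie above 0 for the 4 lists of wall polymers and below it for the class III HD-ZIP and cambium lists.

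Of the wood NAC regulators, the switches of secondary wall formation, 8 of 12 loci could be tested and none was called by edgeR. The list summed to 289.0, 263.8 and 253.3 CPM in fiber and 128.7, 105.3 and 119.4 CPM in the mix, with no overlap. That sum rests on 2 loci. The first, listed as of the vessel type, had 116.5, 133.8 and 116.0 CPM in fiber and 42.6, 18.6 and 38.6 CPM in the mix, a log2 fold of 1.92 ± 0.35 (SE) with an edgeR adjusted p of 0.055. The second, of the fiber type, had 117.8, 84.0 and 134.1 CPM against 37.0, 53.8 and 25.7 CPM, a log2 fold of 1.56 ± 0.35 with an adjusted p of 0.069. At both loci every fiber library exceeded every mix library (background 9.46%), and DESeq2 called both higher (background 3.56%). The other 6 tested loci had at most 27.05 CPM in any fiber or mix library and folds on both sides of 0, so that the list median was -0.48. For the MYB factors that act below the NAC switches, counts were too few for a statement, since of 4 loci 2 were tested and the summed level of the list was at most 14.2 CPM in any of the 6 libraries. The edgeR test called neither, 1 had an unadjusted p below 0.05 with 2 counts in fiber and 247 in the mix, and DESeq2 called that 1 lower. The other had 75 counts in fiber, all in replicate 1, and 92 in the mix.

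Homeodomain factors of the KNOX class regulate meristems and, in stems, the timing of wall thickening. Of 3 listed loci 1 rose in fiber, with 376.6, 377.2 and 470.4 CPM against 77.8, 102.5 and 103.3 CPM in the mix. The separation was wide and the spread in both groups small, and the log2 fold was 2.15 ± 0.24 (SE) with an edgeR adjusted p of 0.027. The most abundant locus of the list, at 340.4 ± 63.4 and 324.5 ± 102.8 CPM (SD, n = 3), had a log2 fold of 0.11 ± 0.30. The third lay lower in fiber at -1.30 ± 0.49, with an adjusted p of 0.22 by edgeR. Calls of the sucrose synthase and KNOX loci were lost without fiber replicate 1 and without each mix replicate, and that of the KNOX locus also in the fit of all 9 captures.

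Regulators of vascular patterning and of the cambium, the cell layer from which wood and phloem are formed, had negative median folds without a called locus. Class III HD-ZIP factors had negative folds at 7 of 8 loci, with a median of -0.94, and at 5 loci all fiber libraries lay below all mix libraries (background 19.6%). None was called by edgeR, 4 had an unadjusted p below 0.05 and DESeq2 called 2 lower (background 6.35%). The list sums did not follow, at 1049 ± 82.3 CPM in fiber and 1092 ± 60.0 CPM in the mix (SD, n = 3). The most abundant locus lay higher in fiber, with 591.1, 629.6 and 657.0 CPM in fiber and 529.2, 504.9 and 424.0 CPM in the mix, a log2 fold of 0.41 ± 0.23 (SE) with an edgeR adjusted p of 0.47. The second most abundant had a log2 fold of -0.09 ± 0.27 and an adjusted p of 0.94 in that test. The 4 cambium regulators, factors and a receptor type that keep the cambium dividing, had folds from -2.41 to -1.82 and a median of -1.94. They summed to 39.5, 51.2 and 10.95 CPM in fiber and 100.9, 67.6 and 230.1 CPM in the mix, with every fiber library below every mix library. By edgeR 0 of 4 were called, 2 had an unadjusted p below 0.05, and DESeq2 called 1 lower (background 6.35%). The 2 most abundant had log2 folds of -1.82 ± 0.75 and -1.93 ± 0.57 (SE), with edgeR adjusted p-values of 0.27 and 0.12. The same list reached 580.5 ± 134.6 CPM in vessel captures and 1024 ± 202.0 CPM in unamplified xylem.

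Xylem cysteine proteases, which digest the contents of dying vessel elements, served as markers of the vessel. The 3 loci summed to 421.0, 200.7 and 209.1 CPM in fiber, 307.7, 102.8 and 383.1 CPM in the mix and 1916 ± 428.0 CPM in vessel captures (SD, n = 3). Fiber and mix libraries overlapped, and folds lay between -1.01 and 0.55. The 2 most abundant had log2 folds of 0.55 ± 0.53 and -0.46 ± 0.82 (SE), with edgeR adjusted p-values of 0.71 and 0.88. The edgeR test called none of the 3, 1 had an unadjusted p below 0.05 with a negative fold, and DESeq2 called none. Set against its label, fiber was thus high in secondary wall cellulose synthases, but all 3 proteases were present in every fiber library. The mix, which includes vessels by its label, had a mean protease sum of 264.5 CPM against 276.9 CPM in fiber. The 8 listed NAC loci of the vessel type went the other way from the proteases, with a lower mean in vessel captures than in fiber. They summed to 124.5 ± 11.5 CPM in fiber, 41.9 ± 18.2 CPM in the mix and 58.9 ± 49.6 CPM in vessel captures (SD, n = 3). That sum rests mostly on 1 locus, with 24.6, 70.85 and 10.8 CPM in the vessel captures.

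**Figure D4:**
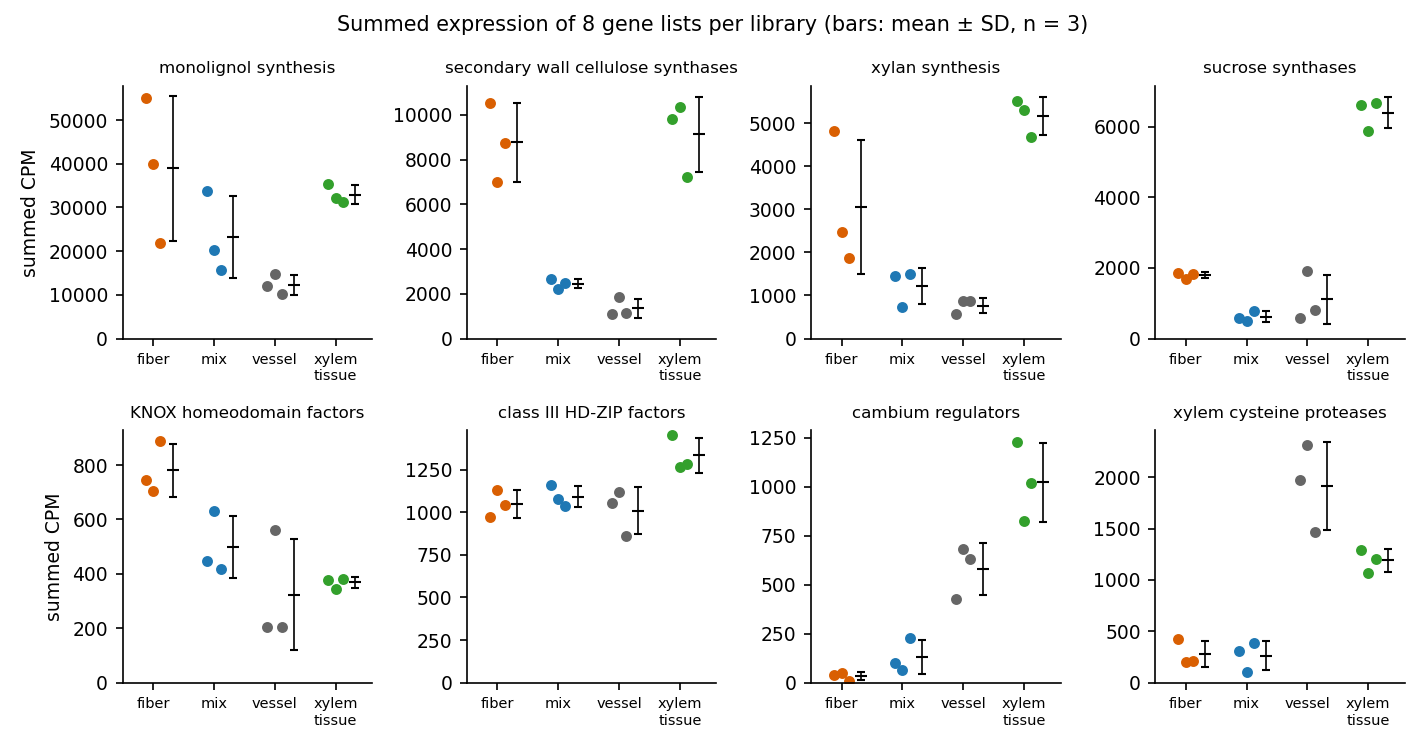
Summed CPM of 8 gene lists in each library of fiber, mix and vessel captures and of unamplified xylem tissue (points), with the mean ± SD of 3 libraries and a separate axis from 0 for each list. Secondary wall cellulose synthases are high in fiber and in xylem tissue, and cambium regulators and xylem cysteine proteases are high in vessel captures and xylem tissue.

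Vessel captures, which did not enter the test, were used to see where the called loci stood in another cell type. They share no library with either group, but the loci were chosen for a low or high fiber level, so the values below describe them without a test. Of the 111 loci lower in fiber, all had a vessel mean of at least 1 CPM, against 87.9% of all tested loci, and all had a vessel mean above the fiber mean, against 49.5%. Their median level was 19.8 CPM in fiber, 133.5 CPM in the mix and 138.9 CPM in vessel. At 74 of the 111 the vessel mean was at or above the mix mean (66.7%, against 45.5% of all tested loci). Of the 111, 18 had every vessel library above every mix library (16.2%, against 7.45% of all tested loci), and 10 had every vessel library below (9.01%, against 21.4%). The 8 most abundant of the loci that fell had vessel means of 921.9 to 18480 CPM, and at all 8 these exceeded the highest fiber library. The 105 loci higher in fiber took the opposite place. All had a vessel mean below the fiber mean, at 98 every vessel library was below every fiber library (93.3%, against 13.2% of all tested loci), and their median was 284.2 CPM in fiber, 68.8 CPM in the mix and 48.4 CPM in vessel.

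Among the 111 loci lower in fiber, vessel and mix libraries overlapped at 83, and 10 had all mix libraries above all libraries of both single cell types. Every vessel library was thus below every mix library at 9.01%, against 21.4% of all tested loci. The ray cells of the mix could be looked for in these 10, but a ray part at the other loci cannot be told from these libraries. Whether ray cells are the source of the 10 loci was not tested, since no ray capture is among the libraries. The most abundant had 89.7, 78.05 and 66.9 CPM in fiber, 289.2, 290.7 and 278.2 CPM in the mix and 190.0, 217.8 and 237.5 CPM in vessel, and 7238 CPM in leaf. The second had 58.2, 55.3 and 50.7 CPM in fiber, 147.2, 204.6 and 155.0 CPM in the mix and 68.0, 81.4 and 138.4 CPM in vessel, and was higher in phloem (104.7 CPM) than in xylem tissue (61.9 CPM). At 8 of the 10 the vessel libraries lay wholly between fiber and the mix. The locus lowest in the mix, with 15.5, 19.1 and 18.9 CPM there, had 0.129, 0 and 0 CPM in fiber and 6.43, 0 and 0 CPM in vessel. Its log2 fold of fiber over the mix was -8.51, which rests on 1 fiber count, and those of the other 9 lay between -2.97 and -1.47. Of the 10 loci, 4 were highest in leaf among the tissues, as were 27.0% of the 111 loci lower in fiber and 7.74% of all tested loci. Without regard to the test, the mix was above all fiber and vessel libraries at 852 of 21652 loci (3.94%) and below them at 120 (0.554%). The 852 loci had low levels, with median values of 1.78 CPM in fiber, 9.41 CPM in the mix and 1.03 CPM in vessel.

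Tissue libraries, which share no sample with the contrast, placed the called loci in the plant. The 15 tissue libraries were fitted together, and xylem against phloem was called with the thresholds used for the captures. For a locus to be called highest in a tissue, the largest of its 4 p-values against the other tissues was taken. That p had to be below 0.05 after Benjamini-Hochberg adjustment over loci, with a log2 fold of at least 1 against each of the other 4. Of the 105 loci higher in fiber, 91 were higher in xylem than in phloem (86.7%, against 20.4% of the loci tested in both fits) and 72 were highest in xylem (68.6%, against 6.83%). Of the 111 loci lower in fiber, 44 were higher in xylem than in phloem (39.6%) and 28 lower (25.2%, against 13.8%). Among the latter 111, 30 were highest in leaf (27.0%, against 7.74%), 12 in root (10.8%, against 5.35%) and 6 in xylem (5.41%). In unamplified xylem the loci lower in fiber had a median of 22.5 CPM, close to the fiber level and below that of the mix and vessel captures. Since captures were amplified and tissues were not, this difference of level and amplification cannot be told apart.

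**Figure D5:**
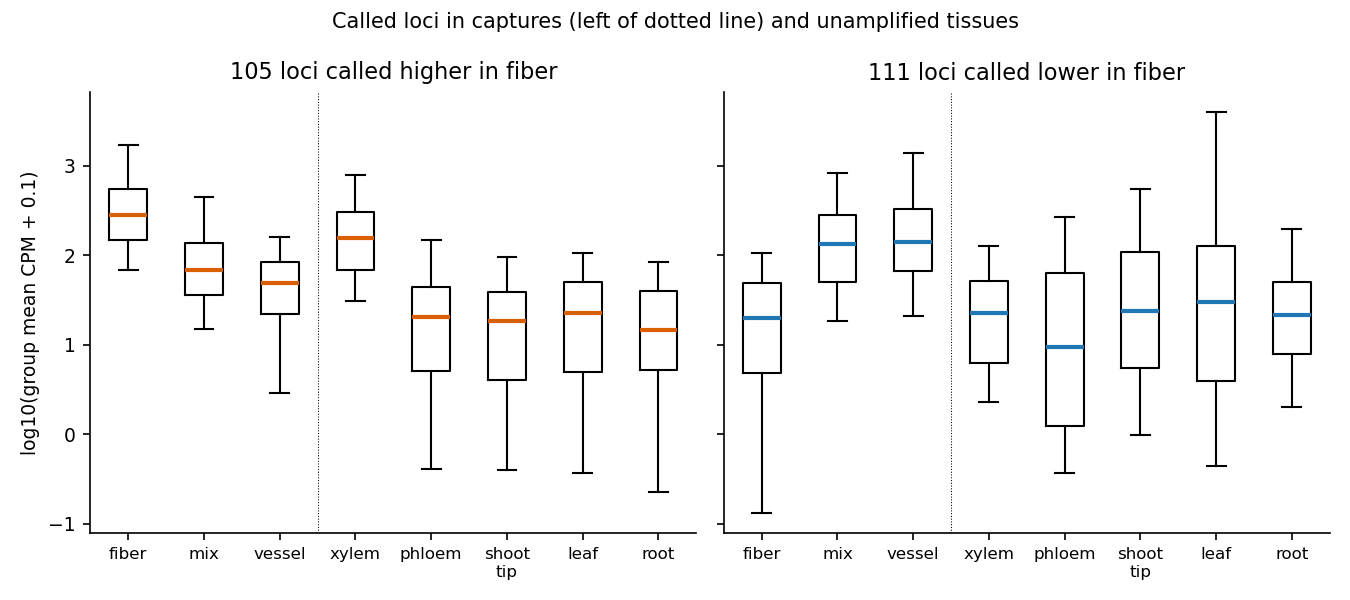
Group mean expression, as log10(CPM + 0.1), of the 105 loci called higher (left) and the 111 called lower in fiber (right) in the 3 captures and 5 tissues. Lines are medians, boxes quartiles and whiskers the 5th and 95th percentiles over loci; loci higher in fiber have their highest tissue median in xylem (154.6 CPM), and those lower in fiber have similar medians in mix and vessel.

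Sets of loci highest in 1 tissue were also followed into the captures, where the xylem set had a positive median and the leaf, root and phloem sets negative ones. Of 1616 loci highest in xylem, 1464 were tested in the captures, 72 rose and 6 fell in fiber (4.92% and 0.410%, against 0.485% and 0.513% of all tested loci), and the median log2 fold was 0.83. Their summed level was 261090 to 331580 CPM in the fiber libraries and 110820 to 152871 CPM in the mix libraries, with no overlap. Of 2779 loci highest in leaf, 1659 were tested, 1 rose and 30 fell in fiber (0.0603% and 1.81%), and the median was -0.71. Their sums ran from 27961 to 29518 CPM in fiber and from 45306 to 48269 CPM in the mix, again without overlap. Of 3197 loci highest in root, 1147 were tested and 12 fell (1.05%), with a median of -0.48. For the 817 loci highest in phloem, 372 were tested, 3 fell (0.806%, near the 0.513% of all tested loci) and the median was -0.72, with sums of 8689 to 9788 CPM in fiber and 11186 to 13965 CPM in the mix. None of the root or phloem loci rose by edgeR, where 32 and 6 had an unadjusted p below 0.05 with a positive fold and DESeq2 called 13 and 4 higher. With a negative fold, 174 root and 79 phloem loci had an unadjusted edgeR p below 0.05, and DESeq2 called 125 and 54 lower. Of all 21652 tested loci, 1533 were higher and 2154 lower at that p, and DESeq2 called 3.56% higher and 6.35% lower. The loci highest in shoot tip had few testable members, 71 of 297, with sums of 1387 to 1813 CPM in fiber and 1564 to 2003 CPM in the mix, and edgeR called 0 of them, with 3 higher and 12 lower at an unadjusted p below 0.05, and DESeq2 called 0 higher and 8 lower. A locus enters these counts only if it passed the filter on low counts, and 946 of the leaf loci and 356 of the phloem loci had no count in fiber, against 449 and 122 in the mix. The part of sequencing depth and of the number of captured cells in these numbers was not tested.

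Some transcripts had no count in fiber but were steadily present in the mix. At 450 of the 41335 loci the 3 fiber libraries had no count, which allows up to 0.108 CPM over the group, while every mix library held at least 1 CPM. The part of sequencing depth and of loss during amplification in this number was not tested. There was no locus of the opposite kind, without a mix count and with at least 1 CPM in every fiber library. The 2 numbers are not alike, since the mix contains fiber cells and every mix library held more counts than any fiber library. Of all 21652 tested loci, 498 had no fiber count and 0 had no mix count. The levels of the 450 loci in the mix were low, with a median of 3.29 CPM and a highest mean of 37.1 CPM. All tested loci, given below for orientation, had a higher median in the mix, 15.95 CPM. Of the 450 loci, 368 had a count in vessel captures (81.8%, against 95.3% of all tested loci), 302 had a vessel mean of at least 1 CPM (67.1%, against 87.9%), and 334 had a mean of at least 1 CPM in xylem tissue.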

How the data were processed

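The deposited values are counts, whole numbers for each locus that the authors had not normalized. TopHat is named per the submitters' processing notes, without a version. Which counting tool, build, annotation and strand setting were used is not given. All 24 columns matched 1 sample title each. Amplification before library preparation, per the labels' protocols, can distort levels and applied to captures alone.

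Counts of the 6 fiber and mix libraries were filtered with filterByExpr, scaled by TMM and compared with the quasi-likelihood test of edgeR 4.0.16 in R 4.3.3, with limma 3.58.1 and DESeq2 1.42.0 as alternatives, and figures were drawn with matplotlib 3.10.9 in Python 3.11.15. Only these 6 libraries were fitted because vessel libraries were known from earlier results to resemble each other less (here their biological coefficient of variation was 153%). Printed CPM use TMM scaling over all 24 libraries. Standard errors were taken as the size of the log2 fold over the root of its F statistic. The method was tried on simulated counts with known changes, drawn with the same spread in both groups. That simulation therefore does not cover the wider spread within fiber than within the mix. Replicates differed by more than sampling noise (ratio of chi-square to its degrees of freedom 43.6 or more within both groups), so all were kept apart. Floors cover counting error only, while SD and SE reflect the spread between libraries.

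Single loci were chosen among called loci without overlap and with a mean of 10 CPM or more in the group where they are high. As no identifier was annotated, 2 in each direction are printed, those with the largest fold and the highest level. The called and the 2 most abundant members of each list are covered, by list. Lists that would select genes by product name could not be applied, as no identifier matched. The comparison, members and lists were chosen with earlier results of these data known. Alternatives were other fits, scalings, filters and tests, and leaving out each library.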

Additional observations from a re-analysis of the deposited data

How the results depend on the processing

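In place of 216 called loci (105 higher and 111 lower in fiber), the fit of all 9 captures called 79 (15 and 64), that of all 24 libraries 4067 (615 and 3452), DESeq2 2146 (771 and 1375) and limma voom with sample weights 1186 (354 and 832). Library totals alone gave 59 higher loci. Leaving out 1 library at a time gave 0 to 175 calls, 0 to 60 higher and 0 to 115 lower. Of the 216 loci, 69 were called in the fit of all 9 captures, 198 in that of all 24 libraries, 216 by DESeq2 and 190 by voom. Their direction is no sign of stability, since the fiber and mix libraries do not overlap at any of them. Deviations from the group mean had correlations of 0.07, 0.02 and -0.01 between fiber and mix libraries of the same replicate number. With so wide a spread within fiber, these values cannot decide whether the replicates were paired. With the replicate block 122 loci were called, 57 higher and 65 lower. Listed loci called were 3, but 25 in the fit of all 24 libraries, 20 by DESeq2, 5 by voom, 5 without a filter on low counts and 0 to 2 with a library left out. The causes of these differences were not tested. Medians of the monolignol (0.51 to 1.18), secondary wall cellulose synthase (1.26 to 1.84), xylan (0.68 to 1.37), primary wall (0.38 to 0.74), class III HD-ZIP (-1.36 to -0.73) and cambium lists (-2.41 to -1.42) did not change sign in any alternative, nor did those of the sucrose synthase, NAC and MYB lists, while those of the KNOX and cysteine protease lists did. With 3 libraries a group and a wide spread within fiber, moderate changes may have been missed.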
